A study of Mus musculus with 7 samples.

Results

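The genes described here are 9 receptors that guide the movement of immune cells: the chemokine receptors Ccr7, Ccr2, Ccr6, Ccr9, Xcr1, Cxcr3 and Cxcr4 and the sphingosine 1-phosphate receptors S1pr1 and S1pr3. They were taken by gene symbol as a list and make up 9 of the 27179 genes counted. The study profiled RNA of CD8 dendritic cells of C57BL/6 mice, isolated by cell sorting, and its title concerns cells left paralysed by a systemic inflammatory syndrome. The CpG CD103 high group (n = 2) came from the population with a high level of CD103, the integrin αE chain, and carried the treatment label CpG, the name of DNA motifs that engage Toll-like receptor 9. The CD103 low group (n = 2) and the CD103 negative group (n = 3) were both untreated. No mutation or transgene is named in the labels. The sources used here do not name the tissue, the dose or the interval after treatment.

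Because the same 2 samples were treated with CpG and sorted as CD103 high, treatment and CD103 level cannot be told apart. The labels give the year 2012 for both CpG CD103 high libraries and for CD103 negative replicates 1 and 2. They give 2013 for both CD103 low libraries and for CD103 negative replicate 3, and do not say what was done on those dates. The tests therefore carried a date term. This sets the CpG CD103 high libraries against the 2 untreated CD103 negative libraries of 2012, and the CD103 low libraries against the single CD103 negative library of 2013. The libraries held between 4474211 and 4629181 counts. In bulk RNA, fewer cells carrying a transcript and less of it per cell cannot be told apart. Of 14 markers of the type 1 conventional dendritic cell (cDC1), to which CD8 dendritic cells belong, all were measured in these libraries, and their summed level was 26640 to 27140 counts per 1000000 counts of the library (CPM) in CpG CD103 high, 22040 to 22700 CPM in CD103 low and 18970 to 20160 CPM in CD103 negative cells.

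Chemokine receptors span the membrane and, when a chemokine binds, act mainly through inhibitory G proteins to turn a cell's movement up the chemokine gradient. The S1P receptors respond to sphingosine 1-phosphate, a lipid that is abundant in blood and lymph and scarce inside tissues, and S1pr1 is known for the exit of lymphocytes from lymphoid organs. In dendritic cells Ccr7 is the receptor for Ccl19 and Ccl21 that brings maturing cells into the T cell zone, Xcr1 is the receptor for Xcl1 and a defining surface marker of cDC1, and Cxcr4 is the receptor for Cxcl12. Ccr2 binds Ccl2 and is best known from the exit of monocytes from bone marrow, Cxcr3 binds the interferon-induced chemokines Cxcl9 and Cxcl10, Ccr6 binds Ccl20, and Ccr9 binds Ccl25 and is known from homing to gut and thymus.

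The promoters of Cxcr4, Xcr1, Ccr2 and Cxcr3 are shown because these 4 receptors were called between CpG CD103 high and CD103 negative cells and have an entry in the promoter table used here. Each is a RefSeq stretch of 300 bases of the build GRCm38.p6, from 250 bases before to 50 bases after the annotated start, written 5′ to 3′ on the gene's own strand. Capitals mark the letters matched by the motifs given after the sequences. The Cxcr4 promoter lies at chr1:128592250-128592549 on the minus strand and that of Xcr1 at chr9:123861980-123862279 on the minus strand. That of Ccr2 lies at chr9:124101933-124102232 on the plus strand and that of Cxcr3 at chrX:101734098-101734397 on the minus strand. The Ccr2 window lies inside the gene span used here for Ccr2, chr9:124101918-124109140, so it holds no bases from before that span.
Cxcr4: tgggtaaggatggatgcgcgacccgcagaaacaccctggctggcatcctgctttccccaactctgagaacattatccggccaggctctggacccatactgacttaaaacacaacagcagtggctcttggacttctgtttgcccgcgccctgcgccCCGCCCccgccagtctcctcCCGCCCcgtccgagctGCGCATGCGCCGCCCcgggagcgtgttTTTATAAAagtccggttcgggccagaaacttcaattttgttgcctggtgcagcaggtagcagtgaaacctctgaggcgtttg
Xcr1: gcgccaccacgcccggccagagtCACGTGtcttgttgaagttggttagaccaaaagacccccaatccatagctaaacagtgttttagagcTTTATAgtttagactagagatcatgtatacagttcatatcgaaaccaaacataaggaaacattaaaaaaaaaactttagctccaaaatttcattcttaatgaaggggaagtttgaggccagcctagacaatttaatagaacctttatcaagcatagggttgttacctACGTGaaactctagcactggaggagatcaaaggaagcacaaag
Ccr2: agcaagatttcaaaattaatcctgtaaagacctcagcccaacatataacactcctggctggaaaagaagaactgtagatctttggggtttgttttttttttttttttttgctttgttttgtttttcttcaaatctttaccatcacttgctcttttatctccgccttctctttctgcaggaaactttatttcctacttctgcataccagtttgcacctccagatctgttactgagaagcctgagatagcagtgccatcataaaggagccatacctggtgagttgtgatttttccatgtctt
Cxcr3: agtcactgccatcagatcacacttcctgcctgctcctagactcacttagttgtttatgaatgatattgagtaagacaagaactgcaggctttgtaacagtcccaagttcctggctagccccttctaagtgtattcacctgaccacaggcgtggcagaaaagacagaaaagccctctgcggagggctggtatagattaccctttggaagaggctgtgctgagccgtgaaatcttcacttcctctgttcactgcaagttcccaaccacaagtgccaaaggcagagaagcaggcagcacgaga

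The Cxcr4 promoter differed in base composition from the other 3 that are shown. Its G and C content was 59.3% and it held 20 CG dinucleotides, against 40.0% and 6 in Xcr1, 38.0% and 1 in Ccr2, and 49.3% and 4 in Cxcr3. The S1pr3 promoter, which is not shown, was close to that of Cxcr4, with 59.0% and 14. Over all 32851 promoters of the table the medians were 52.7% and 7. A set of 9 motifs was searched on both strands. The Cxcr4 window held the TATA box TATAAA, found in 13.6% of all promoters, 30 bases before the start, with a match on the other strand that overlaps it. It also held 3 copies of the GC box GGGCGG, found in 35.7% of all promoters, 1 of which overlaps a match to the NRF1 motif, the run GCGC, AT and GCGC, found in 0.971%. The NRF1 motif was added after the sequence had been seen. The Xcr1 window held ACGTG, the core of the hypoxia response element, found in 19.6% of promoters, in 3 matches of which 2 overlap, and TATAAA on the other strand. No letters of the Ccr2 and Cxcr3 windows matched any of the 9 motifs. The interferon-stimulated response element core (GAAA, any 2 bases, GAAA; 3.44% of promoters), the composite ETS and IRF element (GGAA, any 2 bases, GAAA; 2.72%), the AP-1 site TGANTCA (7.81%) and the kappa B site (GGGA, any base, TTTCC; 0.411%) matched none of the 7 receptors in the table. The gamma-activated sequence TTCNNNGAA (8.3%) matched Ccr6 alone. Ccr7 and S1pr1 were not among the 7.

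The level of the receptors spanned a wide range within each group. Compared per length, as CPM per 1000 bases of the deposited gene model (RPKM), Xcr1 led in every group, with 517 ± 67.5 RPKM in CpG CD103 high (SD, n = 2), 366 ± 13.9 RPKM in CD103 low (n = 2) and 309 ± 11.9 RPKM in CD103 negative cells (n = 3). In CpG CD103 high cells Cxcr3 came second, at 91.6 ± 8.80 RPKM, followed by Ccr7 at 62.6 ± 4.34, Ccr9 at 15.9 ± 3.44, Ccr2 at 6.74 ± 0.171 and Cxcr4 at 4.97 ± 1.09 RPKM. In CD103 low cells Ccr7 came second, at 101 ± 9.31 RPKM, followed by Cxcr3 at 55.7 ± 3.50, Cxcr4 at 35.2 ± 4.58, Ccr9 at 14.7 ± 1.16 and Ccr2 at 5.95 ± 1.16 RPKM. The intervals of 1 SD about these means did not overlap between neighbours in either order. In CD103 negative cells the order was Ccr7 at 144 ± 48.9, Cxcr4 at 70.2 ± 69.2, Cxcr3 at 47.5 ± 0.758, Ccr2 at 18.6 ± 1.92 and Ccr9 at 15.5 ± 0.620 RPKM. There the SD of Cxcr4 was almost as large as its mean. Per length, Cxcr4 lay below Ccr7 and above Ccr2 and Ccr9 in each CD103 negative library. It lay above Cxcr3 in replicate 1 and below it in replicates 2 and 3, so that order was not set by these libraries. S1pr1 averaged 0.220 RPKM in CpG CD103 high, 0.680 RPKM in CD103 low and 0.547 RPKM in CD103 negative cells, and Ccr6 and S1pr3 were lower still.

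**Figure D1:**
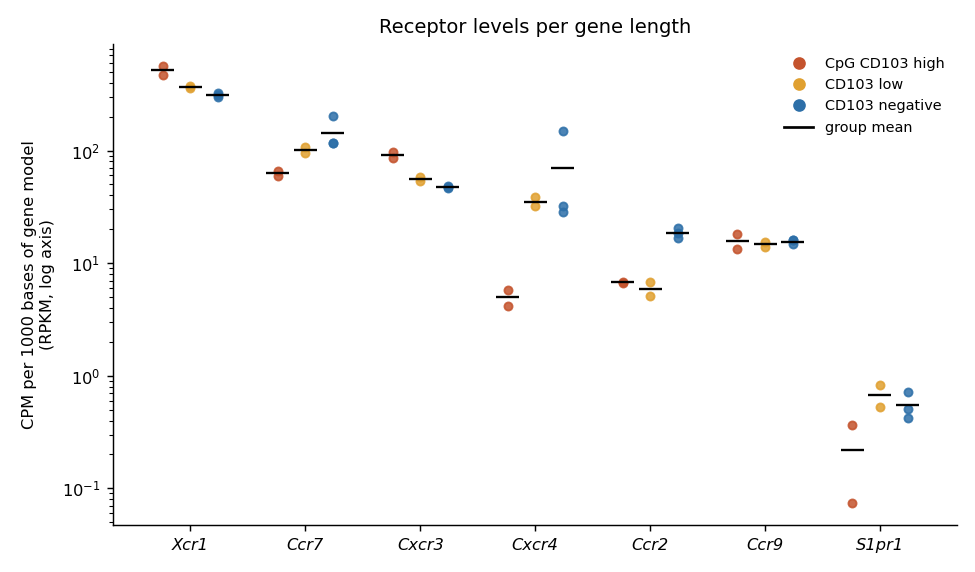
Level per length (RPKM, log axis) of 7 receptors in each CpG CD103 high, CD103 low and CD103 negative library (points), with the group means (bars). Xcr1 stood highest in all groups, and Cxcr4 had its lowest level, 4.97 RPKM, in CpG CD103 high cells.

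Of the 9 receptors, 6 passed the filter on low counts and were tested. In CpG CD103 high against CD103 negative cells, 5 of these 6 differed: Xcr1 and Cxcr3 rose, and Cxcr4, Ccr2 and Ccr7 fell. Ccr9 did not pass the test. In the same comparison 26.3% of all 10863 tested genes were called at an adjusted p under 0.05 in edgeR's quasi-likelihood test, 14.5% higher and 11.8% lower. The median log2 fold change was -0.65 over the 6 receptors and -0.01 over all tested genes. The 5 calls were made again in each of 14 other settings of the analysis.

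Xcr1 (Entrez 23832, chr9:123852315-123862029, mm10) had 2515 and 2090.0 CPM in CpG CD103 high, 1588 and 1676 CPM in CD103 low, and 1382, 1429 and 1323 CPM in CD103 negative libraries. The 3 groups did not overlap, and both CpG CD103 high libraries lay above all others. Over CD103 negative cells, the log2 fold change of CpG CD103 high was 0.71 (SE 0.10, 95% interval 0.5 to 0.92, adjusted p = 0.0007). The CpG CD103 high libraries differed among themselves more than the others did, with means ± SD of 2302 ± 300.4, 1632 ± 61.8 and 1378 ± 53.0 CPM in CpG CD103 high, CD103 low and CD103 negative cells.

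Cxcr3 (Entrez 12766, chrX:101731535-101734147) had 137 and 157 CPM in CpG CD103 high, 85.6 and 93.6 CPM in CD103 low, and 75.1, 76.7 and 77.5 CPM in CD103 negative libraries. The groups stood in the same order as for Xcr1 and did not overlap. CpG CD103 high over CD103 negative gave a log2 fold change of 0.96 (SE 0.10, 95% interval 0.72 to 1.19, adjusted p = 0.00025), a 1.94-fold higher level. Of the tested receptors, Cxcr3 varied least relative to its mean among the CD103 negative libraries, with an SD of 1.22 CPM on a mean of 76.4 CPM.

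Cxcr4 (Entrez 12767, chr1:128588199-128592299) had 10.4 and 7.62 CPM in CpG CD103 high, 57.9 and 69.7 CPM in CD103 low, and 272, 57.8 and 51.7 CPM in CD103 negative libraries. Both CpG CD103 high libraries lay far below all 5 untreated libraries, and CD103 negative replicate 1 lay far above them. The log2 fold change of CpG CD103 high over CD103 negative was -4.19 (SE 0.65, 95% interval -5.64 to -2.73, adjusted p = 0.00152). Without CD103 negative replicate 1 it was -2.68, and the call was kept. The counts behind these values were 47 and 34 in CpG CD103 high, 255 and 303 in CD103 low, and 1240, 268 and 243 in CD103 negative libraries.

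Ccr7 (Entrez 12775, chr11:99144199-99155077) had 129.8 and 118 CPM in CpG CD103 high, 187 and 213 CPM in CD103 low, and 396, 229 and 229 CPM in CD103 negative libraries. The 3 groups did not overlap, and the highest value again belonged to CD103 negative replicate 1. Ccr7 had a log2 fold change of CpG CD103 high over CD103 negative of -1.34 (SE 0.21, 95% interval -1.8 to -0.88, adjusted p = 0.00141), and -0.89 without CD103 negative replicate 1.

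Ccr2 (Entrez 12772, chr9:124101918-124109140) had 24.6 and 23.8 CPM in CpG CD103 high, 24.3 and 18.4 CPM in CD103 low, and 60.2, 66.0 and 73.8 CPM in CD103 negative libraries. The CpG CD103 high and CD103 low libraries overlapped, and every CD103 negative library lay above both groups. The log2 fold change of CpG CD103 high over CD103 negative was -1.38 (SE 0.15, 95% interval -1.71 to -1.05, adjusted p = 0.000222). Chemokine receptor genes can be similar in sequence, and the sources used here do not say how reads that map to several places were counted, so the Ccr2 counts could include reads of a paralog.

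Ccr9 (Entrez 12769, chr9:123767211-123783457) had 80.3 and 58.9 CPM in CpG CD103 high, 60.9 and 68.0 CPM in CD103 low, and 69.8, 65.1 and 69.8 CPM in CD103 negative libraries. The CpG CD103 high libraries lay on either side of the CD103 negative ones. The log2 fold change of CpG CD103 high over CD103 negative was 0.05 (SE 0.15, adjusted p = 0.846), and its 95% interval of -0.28 to 0.37 covers changes in either direction.

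**Figure D2:**
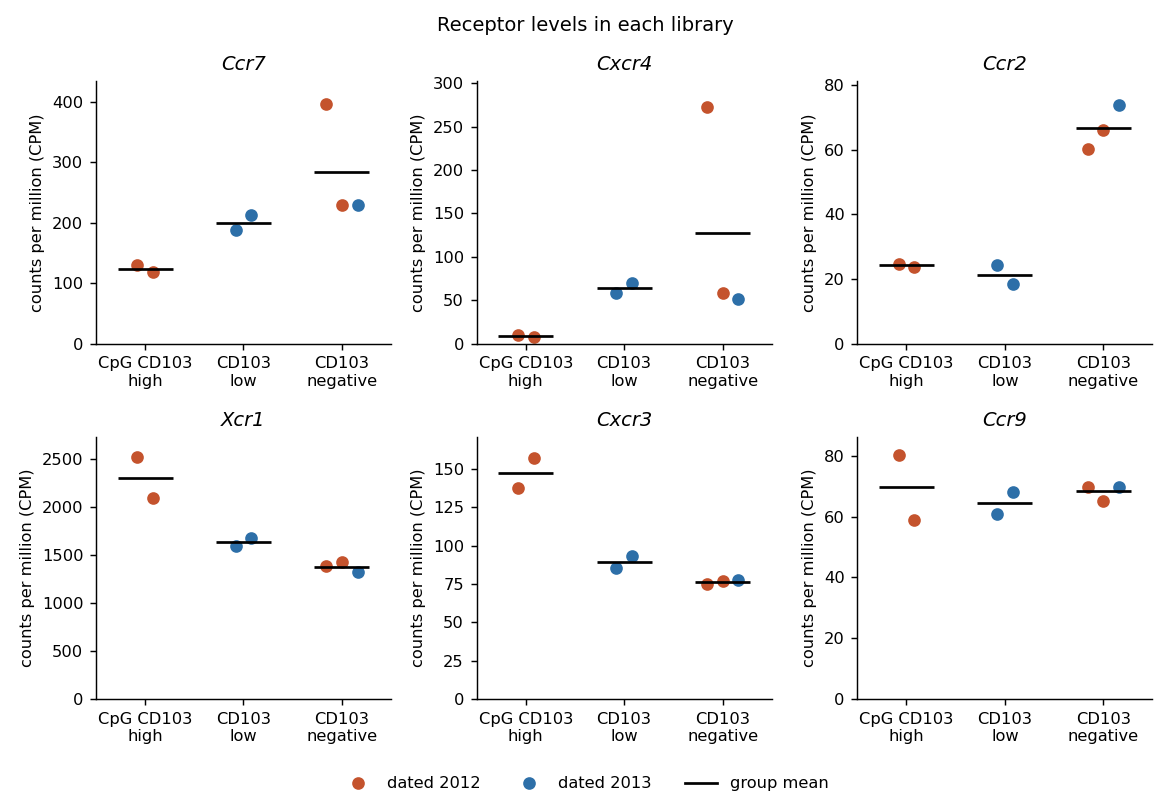
Level (CPM) of the 6 tested receptors in each library, with CpG CD103 high on the left, CD103 low in the middle and CD103 negative on the right; colours give the year on the labels and bars the group means. Xcr1 and Cxcr3 were highest and Cxcr4 and Ccr7 lowest in the CpG CD103 high libraries, while CD103 negative replicate 1 stood apart in Cxcr4 (272 CPM) and Ccr7 (396 CPM).

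In CD103 low against CD103 negative cells, both untreated, Ccr2 was the 1 receptor of the 6 tested that passed. Here 0.138% of all tested genes were called, 15 of 10863, with 0.0829% lower and 0.0552% higher, and 797 had an unadjusted p under 0.05. The log2 fold change of Ccr2 was -1.79 (SE 0.17, 95% interval -2.17 to -1.41, adjusted p = 0.00562). Over 14 other settings its adjusted p reached 0.13. The call was lost with no filter on low counts (adjusted p = 0.0516) and without CD103 low replicate 2 (adjusted p = 0.13), with log2 fold changes of -1.78 and -1.60. Fitted on the libraries of 2013 alone, the value was -1.80.

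The other 5 receptors did not pass in that comparison, and their intervals differ in what they leave room for. Xcr1 had a log2 fold change of 0.30 (95% interval 0.04 to 0.56, adjusted p = 0.58) and Cxcr3 of 0.21 (-0.08 to 0.5, adjusted p = 0.797). Ccr7 had -0.19 (-0.74 to 0.35, adjusted p = 0.911) and Ccr9 -0.12 (-0.52 to 0.29, adjusted p = 0.936). The widest interval was that of Cxcr4, -1.19 to 1.79 about a log2 fold change of 0.30 (adjusted p = 0.961). This estimate rests on CD103 negative replicate 3, and with no date term, where CD103 negative replicate 1 enters with its 272 CPM, it was -0.99.

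CpG CD103 high was set against CD103 low as the difference of the other comparisons, since no library of 1 group shares a date with the other. Cxcr3 was higher and Cxcr4 lower among the 6 receptors, where 6.22% of all tested genes were called, 3.44% higher and 2.78% lower. Cxcr3 averaged 147 ± 14.1 CPM in CpG CD103 high and 89.6 ± 5.63 CPM in CD103 low cells, with a log2 fold change of 0.75 (SE 0.17, 95% interval 0.38 to 1.12, adjusted p = 0.03). Cxcr4 averaged 9.02 ± 1.99 CPM in CpG CD103 high and 63.8 ± 8.31 CPM in CD103 low cells, with a log2 fold change of -4.49 (SE 0.97, 95% interval -6.65 to -2.32, adjusted p = 0.0269). The call of Cxcr3 was lost with DESeq2, with no filter and without 5 of the 7 libraries in turn (CpG CD103 high replicate 2, either CD103 low replicate, CD103 negative replicate 1 or 2), its adjusted p reaching 0.139. The call of Cxcr4 was lost with no date term, where the log2 fold change was -2.82 (adjusted p = 0.0823), with no filter and without CpG CD103 high replicate 2 or either CD103 low replicate, its adjusted p reaching 0.109.

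The remaining receptors did not pass between CpG CD103 high and CD103 low cells. Ccr7 had a log2 fold change of -1.15 (SE 0.32, 95% interval -1.87 to -0.42, adjusted p = 0.0672), Xcr1 of 0.41 (SE 0.15, 0.08 to 0.74, adjusted p = 0.131) and Ccr2 of 0.41 (SE 0.23, -0.1 to 0.92, adjusted p = 0.318). Ccr9 had 0.16 (SE 0.23, -0.36 to 0.68, adjusted p = 0.718). For Ccr7 and Xcr1 the CpG CD103 high and CD103 low libraries did not overlap in CPM. Xcr1 passed with no date term, at a log2 fold change of 0.50 (adjusted p = 0.0246), and also when either CpG CD103 high replicate 2 or CD103 negative replicate 3 was left out. Ccr7 passed without CD103 negative replicate 2, at -1.49.

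**Figure D3:**
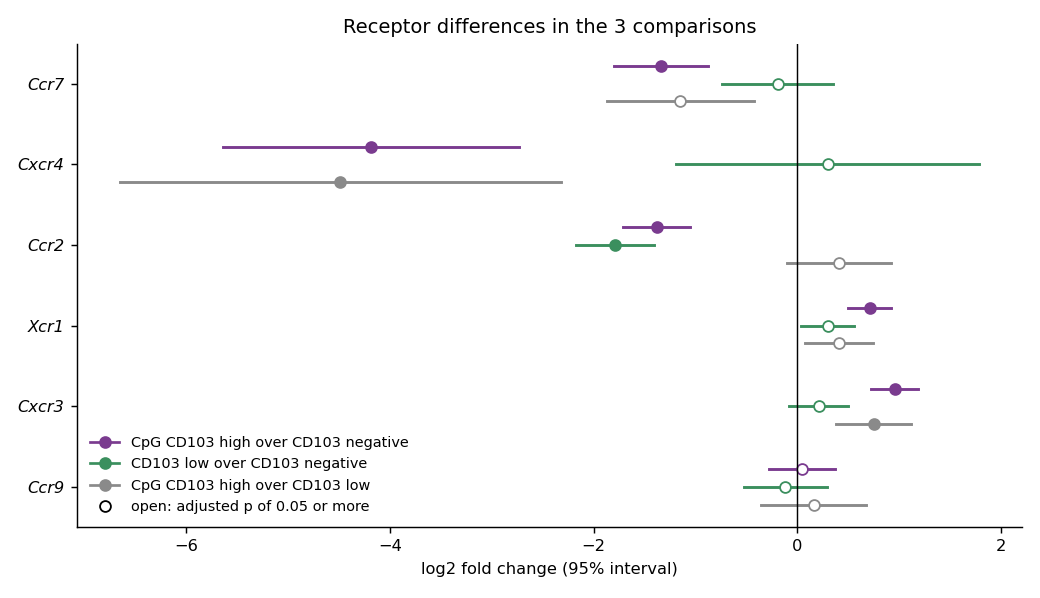
Log2 fold change of the 6 tested receptors with its 95% interval in CpG CD103 high over CD103 negative, CD103 low over CD103 negative and CpG CD103 high over CD103 low; filled points passed an adjusted p under 0.05. Cxcr4 has the widest intervals, and Ccr2 is the receptor that fell in both comparisons with CD103 negative cells.

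The 3 receptors that failed the filter were Ccr6, S1pr1 and S1pr3. S1pr1 (Entrez 13609, chr3:115710433-115715055), the receptor of lymphocyte exit, had 5 and 1 counts in CpG CD103 high, 7 and 11 counts in CD103 low, and 7, 10 and 6 counts in CD103 negative libraries. Its CPM was lower in both CpG CD103 high libraries than in any other. Fitted with no filter, its log2 fold change of CpG CD103 high over CD103 negative was -1.43 (SE 0.72, adjusted p = 0.257), so no difference was detectable at this depth. Ccr6 (Entrez 12458, chr17:8236041-8258519) had 0 counts except for 1 count each in CD103 low replicate 1 and CD103 negative replicate 1. S1pr3 (Entrez 13610, chr13:51408618-51422797) had 0 counts in both CpG CD103 high libraries, 0 and 1 in CD103 low, and 1, 0 and 2 in CD103 negative libraries. A count of 0 allows up to 3 counts, or 0.648 to 0.671 CPM in these libraries, and covers counting error only.

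Of the receptors, 3 lie close together on chromosome 9, in a cluster of chemokine receptor genes. The stretch from Ccr9 to Ccr2, chr9:123767211-124109140, spans 342 kb and lists 8 genes, of which 4 were tested. Its tested genes moved in both directions between CpG CD103 high and CD103 negative cells: Ccr9 did not pass the test, Fyco1 and Xcr1 rose, and Ccr2 fell. Fyco1, whose product links autophagosomes and late endosomes to kinesin and which ends next to Xcr1, had 97.8 and 127 CPM in CpG CD103 high, 57.9 and 69.7 CPM in CD103 low, and 43.3, 40.3 and 60.4 CPM in CD103 negative libraries. Fyco1 had a log2 fold change of 1.43 over CD103 negative (SE 0.15, adjusted p = 0.000211) and 1.35 over CD103 low cells (SE 0.23, adjusted p = 0.0128).

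The other 4 genes of the stretch were close to the limit of detection. Cxcr6, which lies within Fyco1, had at most 6 counts in a library, Ccr3 at most 5 and Ccr1l1 at most 3. Ccr1, a receptor of neutrophils and monocytes, had 26 counts in CD103 negative replicate 3, 1 count in CD103 negative replicate 1 and 0 counts in the other 5 libraries.

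**Figure D4:**
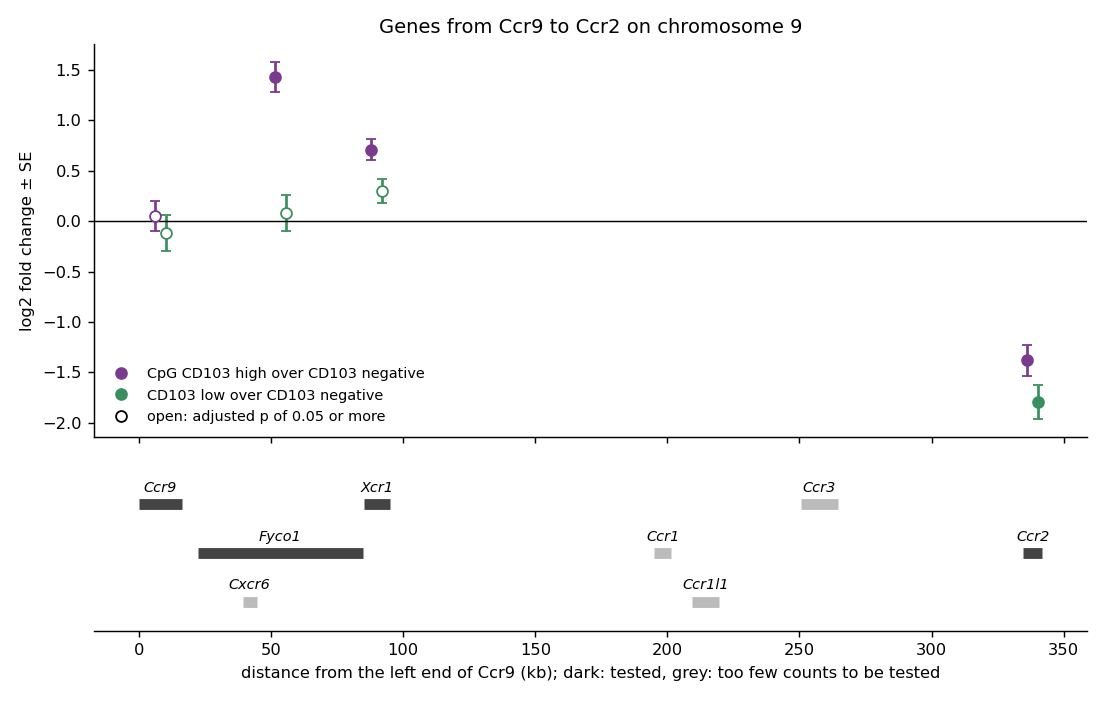
Log2 fold change ± SE of the tested genes along the chromosome 9 cluster, plotted by distance from the left end of Ccr9 with the genes drawn to scale beneath, in CpG CD103 high over CD103 negative and in CD103 low over CD103 negative. Fyco1 and Xcr1 (1.43 and 0.71) lie above 0 and Ccr2 (-1.38) below it in CpG CD103 high cells.

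CD103 negative replicate 1, which gave the highest Cxcr4 and Ccr7 values, was also the highest in a set of 22 immediate early and heat-shock genes, a set chosen after values had been seen. Their summed level was 10160 and 7813 CPM in CpG CD103 high, 6929 and 10800 CPM in CD103 low, and 18870, 10180 and 6958 CPM in CD103 negative libraries. Klf2, a transcription factor that in T cells controls S1pr1 and homing receptors, stood likewise apart in that library. It had 276 and 266 CPM in CpG CD103 high, 219 and 330.3 CPM in CD103 low, and 831, 348 and 205 CPM in CD103 negative libraries, with a log2 fold change of CpG CD103 high over CD103 negative of -1.12 (SE 0.32, adjusted p = 0.0285). That call was lost in 6 of 14 other settings: with no date term, with DESeq2, with no filter, and without CpG CD103 high replicate 1, CpG CD103 high replicate 2 or CD103 negative replicate 1, the last giving -0.36. Hspa1a, a stress-induced chaperone with a near-identical copy, had 8.43 and 34.3 CPM in CpG CD103 high, 572 and 435 CPM in CD103 low, and 1225, 574 and 332 CPM in CD103 negative libraries. Their part in the values of Cxcr4 and Ccr7 was not tested.

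**Figure D5:**
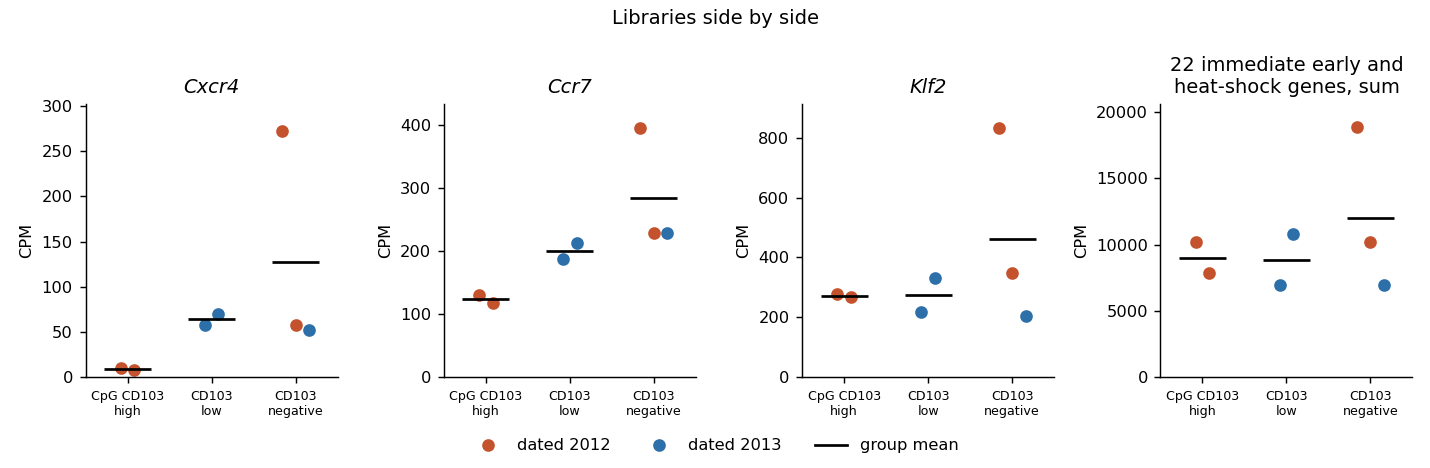
Level (CPM) by library of Cxcr4, Ccr7 and Klf2 and the summed level of 22 immediate early and heat-shock genes, with CpG CD103 high on the left, CD103 low in the middle and CD103 negative on the right; colours give the year on the labels and bars the group means. CD103 negative replicate 1 is the highest library in each panel, at 18870 CPM in the sum.

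The genes around these receptors were described from lists of related receptors, ligands and signalling proteins. Of 13 other chemokine receptors, 3 were tested, and none rose in CpG CD103 high against CD103 negative cells. None of the 4 atypical chemokine receptors, which bind chemokines without G protein signalling, passed the filter, and Ackr2 and Ackr3 had no count in any library. Of 3 other S1P receptors, 2 were tested and S1pr2 rose, where 14.5% of all tested genes rose. S1pr2, which in lymphocytes restrains movement, had 28.8 and 27.3 CPM in CpG CD103 high, 11.6 and 10.8 CPM in CD103 low, and 12.1, 16.8 and 12.3 CPM in CD103 negative libraries. Both CpG CD103 high libraries lay above all others, with a log2 fold change of 0.96 over CD103 negative (SE 0.18, adjusted p = 0.00457) and 1.10 over CD103 low cells (SE 0.32, adjusted p = 0.0721). Per length, its mean was the highest of the 5 S1P receptors in every group.

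Genes that make, break down or export sphingosine 1-phosphate rose in 3 of 7 tested cases in CpG CD103 high against CD103 negative cells, and none fell, where 14.5% of all tested genes were higher and 11.8% lower. They were Plpp1, a lipid phosphate phosphatase, with a log2 fold change of 0.46 (SE 0.11, adjusted p = 0.0124), Asah1, the acid ceramidase, with 0.37 (SE 0.09, adjusted p = 0.0138), and Sgpl1, the lyase that degrades the lipid, with 0.27 (SE 0.08, adjusted p = 0.0362). The median over the 7 was 0.15. Plpp1 and Asah1 lost their calls without CpG CD103 high replicate 1 or CD103 negative replicate 2, and Sgpl1 in 9 of 14 other settings, among them the omission of any of the 6 libraries other than CD103 negative replicate 3. The count of 3 became 1 when CpG CD103 high replicate 1 was missing and 0 when CD103 negative replicate 2 was missing. Among 12 ligands of the 9 receptors, 3 were tested and none passed. Cxcl9, a ligand of Cxcr3 and the most abundant of them, had 1330.0 and 897 CPM in CpG CD103 high, 664 and 734 CPM in CD103 low, and 878, 835 and 714 CPM in CD103 negative libraries. Its log2 fold change of CpG CD103 high over CD103 negative was 0.38 (adjusted p = 0.0917). Ccl19, Ccl21a, Ccl12 and Ccl20 had no count in any library.

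Among 10 tested receptors for other chemoattractants, Gpr35 rose and Cysltr1 and Gpr183 fell in CpG CD103 high against CD103 negative cells. Over all tested genes 26.3% were called in this comparison, 14.5% higher and 11.8% lower, so the count does not set this list apart. Cysltr1, a receptor for cysteinyl leukotrienes, had 3.55 and 5.6 CPM in CpG CD103 high, 11.3 and 13.3 CPM in CD103 low, and 15.6, 14.4 and 16.2 CPM in CD103 negative libraries, a log2 fold change of -1.71 (SE 0.25, adjusted p = 0.00118). Gpr35 had 275 and 259 CPM in CpG CD103 high, 219.8 and 216 CPM in CD103 low, and 179, 191 and 193 CPM in CD103 negative libraries, a log2 fold change of 0.53 (SE 0.08, adjusted p = 0.00157). Gpr183, the oxysterol receptor that positions type 2 dendritic cells in the spleen, had 0.887 and 0.224 CPM in CpG CD103 high, 1.14 and 0.69 CPM in CD103 low, and 11.4, 1.94 and 10.2 CPM in CD103 negative libraries. Its log2 fold change of -3.51 (SE 0.94, adjusted p = 0.0214) rests on few counts, and the call was lost with no filter and without either CpG CD103 high replicate.

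Of 20 tested genes for G protein signalling and receptor desensitisation, 5 rose and 3 fell in CpG CD103 high against CD103 negative cells, against 14.5% higher and 11.8% lower over all genes, with a median log2 fold change of 0.11. Rgs18, which speeds the shut-off of G protein signals, had 15.3 and 13.4 CPM in CpG CD103 high, 34.1 and 29.4 CPM in CD103 low, and 46.8, 44.6 and 40.4 CPM in CD103 negative libraries. Rgs18 had a log2 fold change of -1.67 over CD103 negative (SE 0.15, adjusted p = 8.82e-05) and -1.32 over CD103 low cells (SE 0.22, adjusted p = 0.0119). Arrb1, an arrestin that uncouples active receptors, rose by 0.77 over CD103 negative (SE 0.11, adjusted p = 0.000853) and by 0.67 over CD103 low cells (SE 0.17, adjusted p = 0.0463). Gnai3, an inhibitory G protein α subunit, had log2 fold changes of -0.54 (SE 0.10, adjusted p = 0.00344) and -0.65 (SE 0.16, adjusted p = 0.0376) in the same order. Over CD103 low cells the Arrb1 call was lost in 6 of 13 other settings (adjusted p up to 0.165) and the Gnai3 call in 8 of 13 (adjusted p up to 0.15), both of them without CpG CD103 high replicate 2, either CD103 low replicate or CD103 negative replicate 1, and that of Gnai3 also without CD103 negative replicate 2. The Rgs18 call over CD103 low cells was lost without CD103 low replicate 1. Grk3, a receptor kinase, rose by 0.46 over CD103 negative (SE 0.08, adjusted p = 0.00359) and by 0.69 over CD103 low cells (SE 0.13, adjusted p = 0.0167). Its means were 227 ± 8.72 CPM in CpG CD103 high and 243 ± 11.3 CPM in CD103 low cells, so the second value rests on the date term, and without that term the values were 0.14 and -0.10, neither of them called. Leaving out either CD103 low replicate, CD103 negative replicate 1, or CD103 negative replicate 3 with the date term also ended the call over CD103 low cells.

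Of 20 tested genes for actin and Rac signalling, 2 rose and 6 fell in CpG CD103 high against CD103 negative cells, against 14.5% higher and 11.8% lower over all genes, with a median log2 fold change of -0.07. Fscn1, the actin bundler of dendritic cell protrusions and also a member of the mature dendritic cell list, had 69.2 and 84.0 CPM in CpG CD103 high, 198 and 156 CPM in CD103 low, and 279.5, 242 and 233 CPM in CD103 negative libraries. Its log2 fold change was -1.77 over CD103 negative (SE 0.14, adjusted p = 4.61e-05) and -1.37 over CD103 low cells (SE 0.22, adjusted p = 0.0084). Coro1a, an actin regulator of leukocytes, fell by 0.55 on the log2 scale against CD103 negative cells (SE 0.07, adjusted p = 0.000729), and Dock10, an exchange factor for small GTPases, rose by 0.50 (SE 0.09, adjusted p = 0.00264), a call lost with no date term (0.34, adjusted p = 0.134).

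Of 18 tested regulators of receptor expression or surface level, 5 rose and 4 fell in the same comparison, against the same 14.5% and 11.8% over all genes, with a median log2 fold change of 0. Foxo1, a factor that in T cells drives Klf2 and Ccr7, had 49.2 and 40.3 CPM in CpG CD103 high, 146 and 123 CPM in CD103 low, and 144, 106 and 132 CPM in CD103 negative libraries. Foxo1 had a log2 fold change of -1.48 over CD103 negative (SE 0.17, adjusted p = 0.000288) and -1.51 over CD103 low cells (SE 0.25, adjusted p = 0.0111), the second call being lost without CD103 low replicate 1. Rxra, a partner of the retinoic acid receptors, rose by 0.65 over CD103 negative (SE 0.09, adjusted p = 0.00103), and Hif1a, the oxygen-regulated factor, by 0.63 (SE 0.12, adjusted p = 0.00417). In CD103 low against CD103 negative cells 0 of the 83 tested genes of these 9 lists were called, where 0.138% of all genes were, so the count does not set the lists apart from other genes. With CD103 negative replicate 3 and the date term left out, the actin list held 5 calls.

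Markers of other cell types moved beside some of the receptors. Ccr2 is itself a monocyte marker, and Lyz2, the lysozyme of myeloid cells, fell in CpG CD103 high against CD103 negative cells. Lyz2 had 79.0 and 51.3 CPM in CpG CD103 high, 243 and 230.1 CPM in CD103 low, and 162, 112 and 146 CPM in CD103 negative libraries, with a log2 fold change of CpG CD103 high over CD103 negative of -1.07 (SE 0.20, adjusted p = 0.004). Of the 6 tested monocyte markers, Ccr2 included, 1 rose and 3 fell in CpG CD103 high and 3 fell in CD103 low against CD103 negative cells. Over all tested genes, 14.5% were higher and 11.8% lower in CpG CD103 high cells, and 0.0829% were lower in CD103 low cells. Summed over the 12 monocyte markers other than Ccr2, the level was 97.5 to 164 CPM in CpG CD103 high, 290.1 to 315 CPM in CD103 low and 205 to 345 CPM in CD103 negative libraries, with no marker at 0 in all libraries. Lyz2 made up most of that sum in both CD103 low libraries. The part of monocytes in the Ccr2 values was not tested.

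Of 9 tested markers of type 2 conventional dendritic cells (cDC2), 6 fell and none rose in CpG CD103 high against CD103 negative cells. Over all tested genes, 14.5% rose and 11.8% fell in this comparison, to which the counts that follow also belong. The sum over the 13 listed cDC2 markers was 251 to 283 CPM, 323 to 351 CPM and 305 to 419.9 CPM in CpG CD103 high, CD103 low and CD103 negative libraries. Of 15 tested mature dendritic cell markers, 2 rose and 7 fell. Cd274 rose by a log2 fold change of 1.29 and Il15ra by 0.59, the call of Il15ra being kept in 5 of 14 other settings. Among those that fell were Ccl5, an inflammatory chemokine, with a log2 fold change of -2.36 (SE 0.11, adjusted p = 2.97e-06), and Apol7c, with -2.62 (SE 0.15, adjusted p = 5.62e-06). The sum over the 16 listed was 1445 to 1577 CPM in CpG CD103 high, 3107 to 3503 CPM in CD103 low and 2442 to 3183 CPM in CD103 negative libraries. In the same order Apol7c alone had 119 and 138 CPM, 1553 and 1228 CPM, and 885, 697 and 1034 CPM. Of the 14 cDC1 markers 9 rose and none fell, Tlr3 among them with a log2 fold change of 1.01 (SE 0.08, adjusted p = 4.61e-05). Their part in the values of Ccr7 and Xcr1 was not tested.

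Of 11 tested plasmacytoid dendritic cell markers, which include Ccr9, 4 rose and 3 fell in CpG CD103 high against CD103 negative cells. Over all tested genes, 14.5% rose and 11.8% fell in this comparison, to which the counts that follow also belong. The sum over the 14 other markers was 9509 to 10060 CPM in CpG CD103 high, 7958 to 8221 CPM in CD103 low and 7204 to 8359 CPM in CD103 negative libraries. Pacsin1, Ly6c2 and Tcf4 had at most 64.1 CPM in any library, so the sum was mostly other markers of the list. Siglech, a defining marker of these cells, was highest in CD103 negative replicate 3, at 19.1 CPM. B cell markers fell in 3 of 4 tested cases. Ms4a1, the gene of CD20, had 8.21 and 9.64 CPM in CpG CD103 high, 48.6 and 47.6 CPM in CD103 low, and 69.8, 47.4 and 48.1 CPM in CD103 negative libraries. The sum of 475 to 532 CPM over all libraries was mostly Ighm, at 426 to 494 CPM, which was not called. T cell markers fell in 2 of 2 and summed to 2.24 to 61.1 CPM, the highest value in CD103 low replicate 2. Neutrophil markers rose in 2 of 2 and summed to 0.439 to 21.96 CPM. Macrophage markers rose in 1 and fell in 2 of 7 and summed to 130.2 to 470.4 CPM. Most of that sum in the CpG CD103 high libraries was Hmox1, which rose to 335 and 447 CPM, while Vcam1 and Spic fell. Erythroid and platelet markers rose in 6 of 7 and summed to 5.71 to 53.7 CPM. Endothelial markers rose in 1 of 4 and summed to 71.5 to 115 CPM. That marker, Kdr, had 4.88 and 5.6 CPM in CpG CD103 high, and 1.54, 1.725 and 12.6 CPM in CD103 negative libraries. Its rise rests on the date term, without which the log2 fold change was -0.016. None of the 10 natural killer cell markers passed the filter, their sum being at most 10.1 CPM. The part of these cells in the receptor values was not tested.

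The genes whose pattern was most like that of each receptor were sought over the 7 libraries among 7276 well-expressed genes, as a description. For Xcr1 they were Olfm1 and Bst1, with Pearson's r of 0.991 and 0.990, and for Cxcr3 Colgalt1 and Ehbp1l1, with 0.996 and 0.995. For Ccr7 they were Arl5c and Smad7, with 0.998 and 0.982, and Arl5c had 57.7 and 54.7 CPM in CpG CD103 high, 77.7 and 81.6 CPM in CD103 low, and 122, 86.0 and 87.5 CPM in CD103 negative libraries. For Cxcr4 they were Serinc3 and Dcps, with 0.988 and 0.987, and for Ccr2 Net1 and Wdr3, with 0.987 and 0.981. Serinc3 ordered the libraries as Cxcr4 did, except for CD103 negative replicates 2 and 3, and varied far less in size. It had 316 and 307 CPM in CpG CD103 high, 379 and 397 CPM in CD103 low, and 445, 364 and 372 CPM in CD103 negative libraries. For Ccr9, the receptor that did not pass in any comparison, the closest were Ppp1r16a and Nr4a2, with 0.967 and 0.930. The libraries shared their dates and groups in all of these correlations.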

How the data were processed

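For each of the 7 samples the authors deposited whole-number read counts per gene, not normalized, with a gene-model length, per the file headers. CASAVA, Subread 1.4.6, featureCounts and the build mm10 are named, without roles, per the submitters' processing notes. The sources used here do not state the annotation, the strand setting or the handling of reads mapping to several places. A series-wide table was not used, because its 7 columns carry names that match no sample.

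Of 27179 Entrez identifiers, 25275 (93.0%) matched the RefSeq table of the same build (GRCm38), which gave symbols and coordinates. In edgeR 4.0.16 (R 4.3.3), filterByExpr by group left 10863 genes, TMM factors (trimmed mean of M-values) scaled the libraries, and 1 quasi-likelihood model of group plus date took in every library, leaving 3 residual degrees of freedom. A gene was called where its p, adjusted by Benjamini-Hochberg over all tested genes, was under 0.05. CPM uses the TMM-scaled library size, and the SE is the log2 fold change divided by the square root of F. Correlations used log2 CPM with a prior count of 2. The samples are called biological replicates in the design text, and none were identical. The p-values measure the spread between replicates of the same group and date. CD103 negative replicate 3, the only CD103 negative library of 2013, therefore adds nothing to that spread.

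The receptors and the lists (267 of 268 entries found) were chosen with earlier results of these data known. Named are the 9 receptors, up to 3 called genes of each list by adjusted p or its most abundant gene, the chromosome 9 genes and the 2 genes most correlated with each tested receptor. Most markers of other cell types are given as counts only, and Klf2, Hspa1a, Siglech, Cd274 and Il15ra were named after their values were seen. The cluster was to end at Ccrl2, which lies outside it (chr9:111054834-111057518), so Ccr2 was taken as its end after the positions were seen. Some genes of the lists are not reported here. Alternatives were no date term, libraries of 1 date, RLE scaling, DESeq2 1.42.0, no filter, at least 10 counts in every library of a group, a replicate block and leaving out each library.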

Additional observations from a re-analysis of the deposited data

Results flagged for a closer look

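Cxcr3 and Cxcr4 changed differently in CpG CD103 high and in CD103 low cells, both measured against CD103 negative cells. The difference between these changes, which is the log2 fold change of CpG CD103 high over CD103 low, was 0.75 for Cxcr3 (SE 0.17, edgeR adjusted p = 0.03) and -4.49 for Cxcr4 (SE 0.97, edgeR adjusted p = 0.0269). Cxcr3 was higher in 2 of 2 CpG CD103 high libraries than in either CD103 low library, and Cxcr4 was lower in 2 of 2. The range of the adjusted p over the alternatives was 0.000947 to 0.139 for Cxcr3 and 6.75e-05 to 0.109 for Cxcr4. The Cxcr3 call was lost in 7 of 13 alternatives and the Cxcr4 call in 5 of 13. Over these alternatives the log2 fold change was 0.645 to 0.839 for Cxcr3 and -5.21 to -2.80 for Cxcr4, which was -2.82 with no date term. The CpG CD103 high and CD103 low libraries carry different dates, and the sources used here do not say what was done on those dates.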

How the results depend on the processing

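The 5 receptor calls in CpG CD103 high against CD103 negative cells kept their direction and their call in all 14 alternatives, with log2 fold changes of -4.91 to -2.68 for Cxcr4, -1.68 to -0.89 for Ccr7, -1.46 to -1.31 for Ccr2, 0.57 to 0.83 for Xcr1 and 0.84 to 1.05 for Cxcr3. Counts of called genes moved more. For CpG CD103 high over CD103 negative the count was 2860, and 1589 with no date term, 1459 with DESeq2 and 1738 to 2290 when a library was left out. For CD103 low over CD103 negative it was 15, and 187 on the libraries of 1 date, 33 with DESeq2, 1 with no filter, 1175 with the replicate block and 1 to 27 when a library was left out. For CpG CD103 high over CD103 low it was 676, and 390 with DESeq2, 263 with no filter, 1775 with the block and 115 to 748 when a library was left out. Leaving out CD103 negative replicate 3 takes the date term with it, and the 3 counts were then 2861, 1035 and 1668.

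Receptors called in CD103 low over CD103 negative were 1, and 0 with no filter and 0 to 1 when a library was left out. In CpG CD103 high over CD103 low they were 2, and 1 with DESeq2, 0 with no filter, 4 with the replicate block and 0 to 2 when a library was left out (3 where CD103 negative replicate 3 and the date term were missing). Direction reversed for values that had not passed: when a library was left out, Ccr9 in CpG CD103 high over CD103 negative ran from -0.196, when CpG CD103 high replicate 1 was missing, to 0.24, and lay at -0.004 when CD103 negative replicate 2 was missing. In CpG CD103 high over CD103 low it ran from -0.082, again when CpG CD103 high replicate 1 was missing, to 0.366. Cxcr4 in CD103 low over CD103 negative was -0.995 with no date term, -1.086 with the block and -1.396 without CD103 negative replicate 3. Among genes of the lists that had been called, Kdr in CpG CD103 high over CD103 negative was -0.016, and Grk3 and Pik3r5 in CpG CD103 high over CD103 low were -0.095 and -0.016, with no date term. With the block Grk3 and Pik3r5 were -0.095 and -0.015, and Cd7, Ly6c2 and Kdr in CD103 low over CD103 negative were 0.345, 0.115 and 0.404. Without CD103 negative replicate 3 these 3 were 0.319, 0.091 and 0.378 and Grk3 was -0.075. The cause was not tested.

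Same-numbered replicates of CpG CD103 high and CD103 negative deviated together with r = 0.242, against -0.009 for CD103 low with CD103 negative and -0.046 for CpG CD103 high with CD103 low, and with 2 shared numbers and no label that gives them a meaning the samples were not treated as pairs. With the block in place of the date term the counts were 3013, 1175 and 1775 genes and 5, 1 and 4 receptors in the 3 comparisons, the last including Ccr7 at -0.708 and Xcr1 at 0.494. Of the list genes called, 53 of 87, 0 of 5 and 9 of 32 were called in every alternative. The libraries of 1 date give no value for CpG CD103 high over CD103 low. At 4474211 to 4629181 counts in a library, Ccr6, S1pr1 and S1pr3 were too low to test.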
